A study of Mus musculus with 11 samples.

Results

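HSC that express an activated Nras from its own locus (NV) were compared with control HSC across all genes. The comparison took 7 of the 11 libraries of the series, chosen by the genotype in their labels: 3 of NV HSC and 4 of control HSC. NV mice carried LSL NrasG12D/+ and Vav-Cre, in which Cre under the Vav promoter removes the LSL stop cassette in blood cells and leaves 1 mutant and 1 normal Nras allele. Control mice were labelled wild type and are called littermates in the study's methods. Littermate controls in the study's other assays carried an LSL allele of the NA10hd transgene without Cre, and whether the controls of these libraries carried an LSL allele is not given in the sources used here. All mice were C57BL/6 and 8 weeks old. HSC were sorted from bone marrow as Lin-CD48-c-Kit+Sca1+CD135-CD150+ cells in aliquots of 1000, cDNA was amplified, and the deposited values are raw read counts per gene. The remaining 4 libraries hold NA10hd HSC and entered only an alternative fit. The study calls the libraries of a group biological replicates. Neither it nor the labels say that each came from a separate animal, so p-values measure only the spread between these samples.

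Nras is a small GTPase that passes signals from cytokine and growth factor receptors to the MAP kinase cascade and to PI3-kinase, and the G12D substitution keeps it in its GTP-bound, active state. HSC of adult bone marrow are mostly quiescent, and they are rich in transcripts that mark this state and in some megakaryocyte transcripts. Genes of DNA replication and mitosis are transcribed in waves as cells leave quiescence and pass through S phase and G2/M, through E2F factors and the MuvB complexes with B-Myb and FoxM1.

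Total counts were 5464815 to 12610189 in control and 9981499 to 14283008 in NV libraries, with 15485 to 15899 and 15683 to 15900 genes detected. A gene with 0 counts in all NV libraries was below 0.0811 CPM, and in all control libraries below 0.0848 CPM, taking 3 counts over the group as the limit of counting error. CPM is a gene's count scaled to the library's total and its TMM factor, a correction for library composition. Xist, the transcript of the inactive X chromosome, had 0 counts in control replicates 1 and 4 and 45 to 277 counts in the other control and all NV libraries, while Y-linked genes were counted in all 7. Control replicates 2 and 3 are thus the control libraries that, like the NV libraries, held both kinds of transcript, and counts against them alone are given beside the results. Of the genes for the sort markers, Kit was at 321 ± 53 CPM in control and 298 ± 12.7 CPM in NV, and of the markers the sort excluded Cd2, Cd3e and Cd8a were at 0 in all 7 libraries, Ly6g at up to 0.0812 CPM, Cd4 at up to 1.66 CPM and Itgam (Mac1) at up to 3.91 CPM. Flt3 (CD135) was at 2.12 to 17.7 CPM in control and 3.66 to 10.2 CPM in NV libraries. Ly6a (Sca1), a gene of the gate itself, was at 296, 317, 335 and 261 CPM in the control libraries and 603, 454 and 413 CPM in the NV libraries, and its increase of 1.62-fold was significant (adjusted p = 0.0126). Ly6a was not called without NV replicate 1 (adjusted p up to 0.0587). Nor was it called against control replicates 2 and 3 alone (adjusted p = 0.108). Slamf1 (CD150) was at 109 ± 31.8 CPM in control and 71.5 ± 7.06 CPM in NV (adjusted p = 0.134). Without control replicate 3 it was called lower. Among genes of mature myeloid cells S100a8, S100a9, Camp, Ltf, Ngp and Lcn2 were at 0 to 2.56 CPM, and of the whole list only Lyz2 (504 ± 48.5 CPM in control and 517 ± 18.3 CPM in NV) exceeded the 11.6 CPM that Cd68 reached. Defining genes of erythrocytes (Hba-a1, Slc4a1), B and T cells (Cd79a, Ms4a1, Pax5, Cd3e) and stroma (Col1a1, Col3a1) were at 0.57 CPM or less in every library, while Col1a2, another collagen gene, was at 2.46 to 12.2 CPM. Other genes of the same lists were counted in every library, among them Cd79b (40.1 to 71.6 CPM), Lck (23 to 45.3 CPM) and Ltb (105 to 166 CPM) of the lymphoid list and Car2 (1042 to 1467 CPM) and Hbb-b2 (4.83 to 16.8 CPM) of the erythroid list.

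The targeted gene was read first. Nras (ENSMUSG00000027852, chromosome 3, 102862152 to 102871837 of NCBIM37, plus strand) was at 95.9, 81.5, 69.7 and 96.1 CPM in the control libraries and 116, 114 and 112 CPM in the NV libraries. All NV libraries were above all control libraries, with a log2 fold change of 0.41 ± 0.14 (SE) that did not pass the threshold (adjusted p = 0.124). The counts cover the whole gene and do not separate the mutant from the normal allele, so they do not check the genotype. Of 32 tested genes of the Ras pathway (Ras genes, exchange factors, GTPase activating proteins and kinases downstream) 0 were differentially expressed genes (DEGs), defined as an adjusted p under 0.05 by edgeR's quasi-likelihood test with Benjamini-Hochberg adjustment and a fold change above 1.5, against 4.76% of all genes tested. In that list 8 genes had an unadjusted p under 0.05, DESeq2 called 1 higher and 1 lower and limma-voom called 0, and the median log2 fold change was 0.10. Rras, a relative of Nras, was at 52.1 ± 11.8 CPM in control and 31.7 ± 4.49 CPM in NV (adjusted p = 0.0762). Within 5 Mb of Nras 1 of 71 tested genes was a DEG, and within 20 Mb 17 of 333 were (5.11%). The gene within 5 Mb was Chi3l7, a chitinase-like gene, which fell from 49 to 14.2 CPM (adjusted p = 0.00212).

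Of 13462 genes tested, 641 (4.76%) were DEGs. In NV HSC 343 (2.55%) were higher and 298 (2.21%) lower. In such bulk samples fewer cells of a type and less RNA per cell cannot be told apart. At an unadjusted p under 0.05 there were 2626 genes (19.5%). The 3 NV libraries all lay above the 4 control libraries in 1258 genes (9.34%) and below them in 1287 (9.56%), and 633 of the 641 DEGs were among these. The median change was 2.31-fold for the higher and 2.17-fold for the lower DEGs, and 62 higher and 68 lower DEGs changed more than 4-fold. The median log2 fold change of all tested genes was -0.01. DEGs were 2.08% of the fifth of genes with the lowest level and 6.31% of the fifth with the highest. Leaving out NV replicate 2 or NV replicate 3 left 269 or 263 DEGs, against control replicates 2 and 3 alone there were 301 (171 higher), and with all 3 groups in one fit there were 155 (83 higher). A total of 196 DEGs, 121 higher and 75 lower, were called whichever of the 7 libraries was left out.

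**Figure D1:**
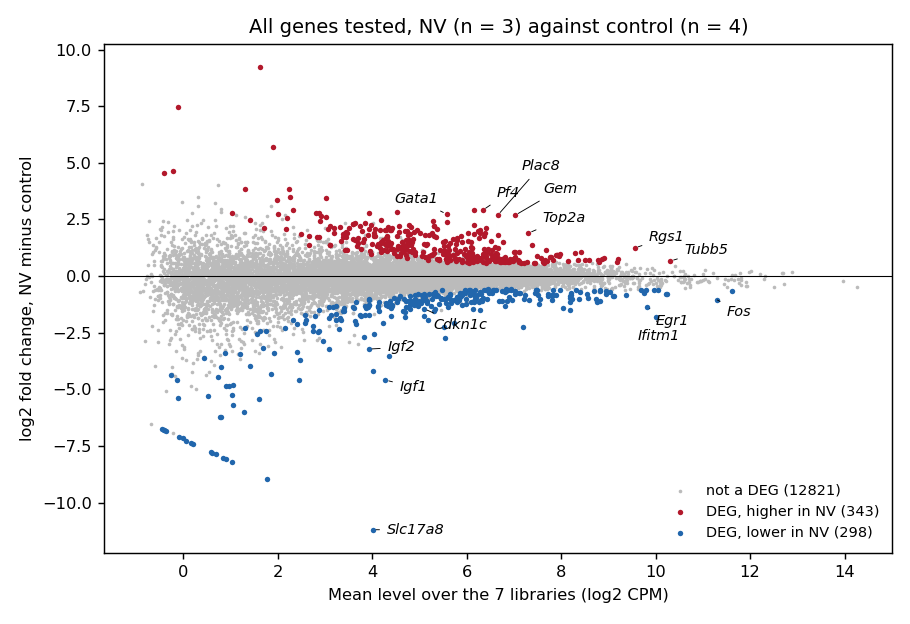
Each of the 13462 tested genes by its mean level over the 7 libraries (log2 CPM, horizontal axis) and its log2 fold change, NV minus control (vertical axis). The 343 DEGs higher in NV are red, the 298 lower are blue, and the lowest blue points include 17 genes with 0 counts in all NV libraries, whose fitted fold change depends on the prior count.

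**Figure D2:**
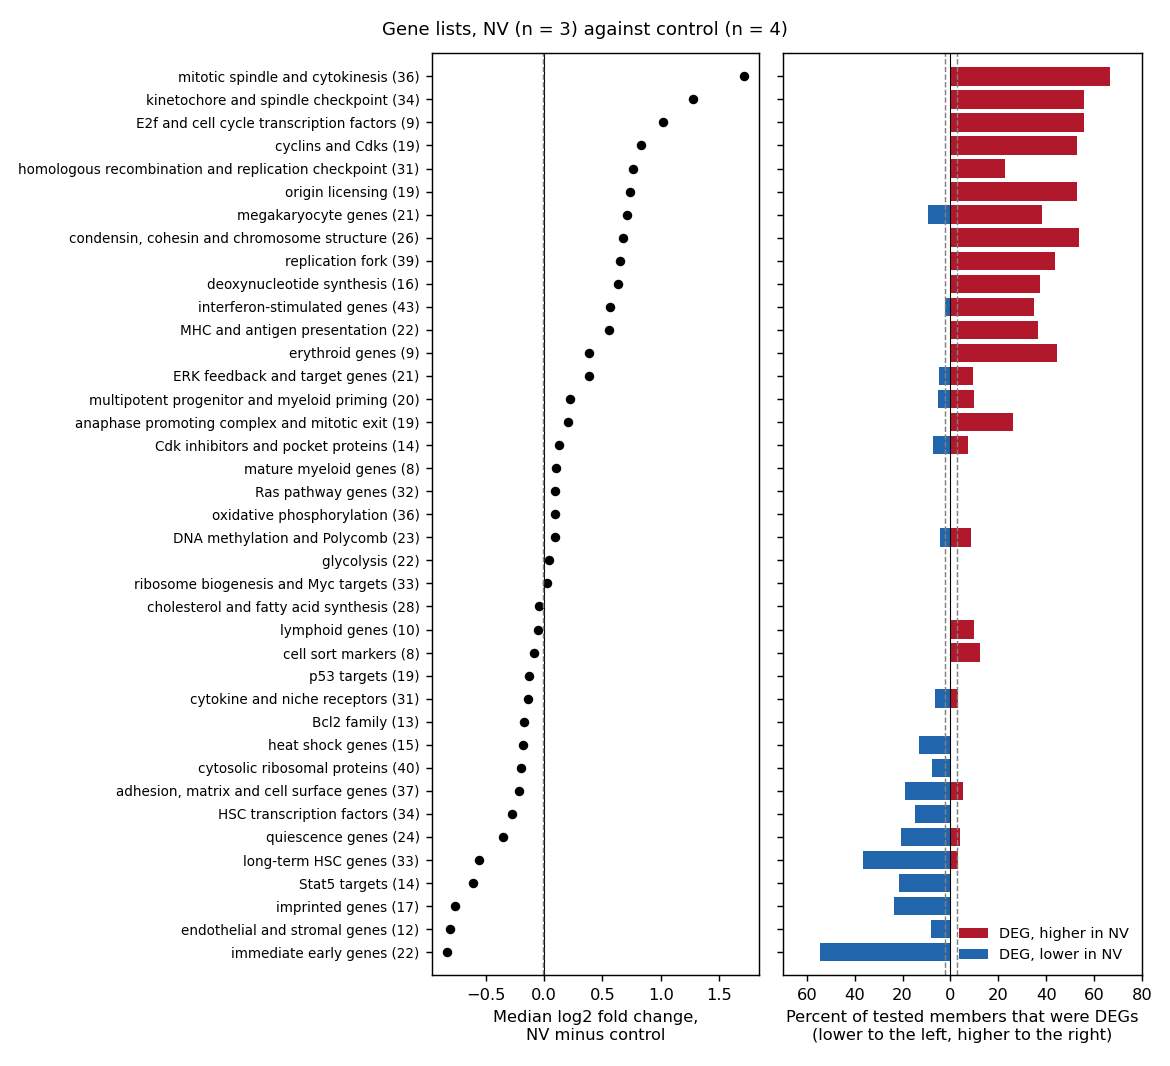
Gene lists, with the number of tested members in brackets, ordered by the median log2 fold change of their members (left) and the percent of members that were DEGs in each direction (right); dashed lines mark the median of all genes (-0.01) and the percent of all genes called higher (2.55%) and lower (2.21%). The mitotic spindle list is at the top, with a median of 1.71, the other cell cycle lists range from 0.20 (anaphase promoting complex and mitotic exit) to 1.27, and immediate early genes are at the bottom, with a median of -0.83.

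Genes that carry out DNA replication and mitosis made up the largest group among the higher DEGs of the lists examined. In the 10 lists of cell cycle genes, 117 of 248 tested genes were higher in NV HSC (47.2%) and 0 were lower, against 1.71% higher and 2.26% lower among the genes outside these lists. These 117 genes were 34.1% of the higher DEGs. They numbered 70 without NV replicate 2, 64 without NV replicate 3, 64 against control replicates 2 and 3 alone and 30 with all 3 groups in one fit, and 0 were lower in any of these. The median log2 fold change was 0.83 for cyclins and Cdks, 1.02 for E2f and cell cycle transcription factors, 0.74 for origin licensing, 0.65 for the replication fork, 0.64 for deoxynucleotide synthesis and 0.77 for homologous recombination and the replication checkpoint. It was 1.27 for the kinetochore, 1.71 for the mitotic spindle and cytokinesis, 0.68 for condensin, cohesin and chromosome structure and 0.20 for the anaphase promoting complex and mitotic exit.

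Among cyclins and Cdks, 10 of 19 were higher. Cdk6, the G1 kinase that binds D cyclins, was at 51, 45.1, 35.2 and 65.8 CPM in the control libraries and 134, 227 and 151 CPM in the NV libraries. Every NV library was more than any control library, with a log2 fold change of 1.80 ± 0.22 (SE) (adjusted p = 0.00132). Ccnb2, a B-type cyclin of mitosis, rose from 33.3 to 132 CPM (adjusted p = 0.00133), Cdk1, its partner kinase, from 27.8 to 70.3 CPM, and Cks2, a Cdk1 binding subunit, from 55.8 to 129.7 CPM. The D cyclins did not pass the test, with log2 fold changes of 0.39 for Ccnd1, -0.30 for Ccnd2 and 0.18 for Ccnd3. Cdk4, their other partner kinase, was at 412 ± 34.4 CPM in control and 567 ± 12.6 CPM in NV (adjusted p = 0.0184), under the fold threshold. The list had 5 higher members without NV replicate 2, 6 without NV replicate 3, 5 against control replicates 2 and 3 alone and 4 with all 3 groups in one fit.

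Of 14 Cdk inhibitors, pocket proteins and MuvB subunits, Rbl1 (p107) was higher and Cdkn1c (p57) lower (7.14% each way, against 2.55% and 2.21% of all genes). Both calls were lost without NV replicate 1, NV replicate 2, NV replicate 3 or control replicate 1, and Cdkn1c also without control replicate 4 (adjusted p up to 0.12). Rbl1 rose from 54.3 to 89.1 CPM (adjusted p = 0.0233). Cdkn1c, the inhibitor most tied to HSC quiescence, was at 69.8, 28.2, 26.3 and 63.7 CPM in the control libraries and 17.3, 18.4 and 15.9 CPM in the NV libraries. The NV libraries were all below the controls, whose replicates 1 and 4 were more than 2 times replicates 2 and 3. The log2 fold change was -1.44 ± 0.34 (SE) (adjusted p = 0.0294), and against control replicates 2 and 3 alone it was -0.66 (adjusted p = 0.22). Cdkn1a (p21) was at 12 ± 5.51 CPM in control and 13.3 ± 2.11 CPM in NV and Cdkn1b (p27) at 8.78 ± 2.22 CPM in control and 15 ± 5.65 CPM in NV, and neither passed the test. Of 9 E2f and cell cycle transcription factors 5 were higher (2 without NV replicate 2, 2 without NV replicate 3 and 2 against control replicates 2 and 3 alone). EdgeR called 0 of them with all 3 groups in one fit, where 4 had an unadjusted p under 0.05. E2f8, an E2F that represses its targets late in S phase, rose from 6.01 to 34.3 CPM, Mybl2 (B-Myb) from 11.2 to 38.8 CPM, Foxm1 from 11 to 32.6 CPM and Tfdp1, the dimerization partner of E2Fs, from 121 to 184 CPM, with adjusted p from 0.00132 to 0.0184. The leave-one-out fits did not call Foxm1 without NV replicate 2 or 3, and Tfdp1 without NV replicate 2 or 3 or control replicate 1, the highest adjusted p being 0.104. Rbl1, Foxm1 and Tfdp1 were not called against control replicates 2 and 3 alone (adjusted p 0.0737 to 0.125).

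In origin licensing, which loads the Mcm2-7 helicase onto DNA in G1, 10 of 19 genes were higher, and 6 were in the fits without NV replicate 2, without NV replicate 3, without control replicate 1 and against control replicates 2 and 3 alone, with 2 in the fit of all 3 groups. Mcm5, a helicase subunit, was at 144, 197, 187 and 158 CPM in the control libraries and 309, 388 and 299.6 CPM in the NV libraries. The lowest NV library was above the highest control library, and the log2 fold change was 0.95 ± 0.14 (SE) (adjusted p = 0.00254). Cdt1, the loading factor, rose 2.08-fold, Mcm2 1.83-fold and Mcm10, which acts as the helicase is switched on, 4.2-fold. Of the complex that marks origins, Orc6 rose from 56.5 to 88.3 CPM (adjusted p = 0.0353). Orc1 was at 4.32 ± 2.1 CPM in control and 12.5 ± 3.17 CPM in NV, a log2 fold change of 1.51 that was not called (adjusted p = 0.069), and Orc2, Orc3, Orc4 and Orc5 had log2 fold changes from -0.17 to 0.24 and were not called. In the replication fork list 17 of 39 genes were higher, but 4 without NV replicate 2, 10 without NV replicate 3, 7 against control replicates 2 and 3 alone and 4 with all 3 groups in one fit. Lig1, the ligase that joins Okazaki fragments, rose from 60.7 to 134 CPM, Asf1b, a histone chaperone, from 28 to 91.4 CPM, Pola2, a subunit of the primase complex, from 61.6 to 115 CPM, and Dnmt1, the maintenance DNA methyltransferase, from 177 to 348 CPM. Of the deoxynucleotide enzymes 6 of 16 were higher (4 without NV replicate 2, and 3 without NV replicate 3, against control replicates 2 and 3 alone and with all 3 groups in one fit), among them thymidine kinase Tk1 from 39 to 127 CPM and thymidylate synthase Tyms from 58.1 to 123 CPM, with Rrm1 and Dck. In homologous recombination and the replication checkpoint 7 of 31 were higher, Brca1 from 11.4 to 45.2 CPM and Rad51ap1 from 17.7 to 62.6 CPM among them, and 2 to 4 without NV replicate 2, NV replicate 3 or control replicate 4 or against control replicates 2 and 3 alone and 2 with all 3 groups in one fit. The checkpoint kinases Atm and Atr, which act upstream, and Chek1, which acts downstream, were not called. Their log2 fold changes were -0.37 for Atm, 0.32 for Atr and 0.37 for Chek1. Among the leave-one-out fits, edgeR did not call Orc6 without NV replicate 2 or 3 or control replicate 1, 3 or 4, and Dck without NV replicate 3, the highest adjusted p being 0.178. Orc6 and Dck were not called against control replicates 2 and 3 alone (adjusted p 0.0608 to 0.14).

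The mitotic spindle list had the largest median change of all lists. Of 36 genes of the spindle and cytokinesis 24 were higher and 0 lower (15 without NV replicate 2, 13 without NV replicate 3, 15 against control replicates 2 and 3 alone and 3 with all 3 groups in one fit). Their summed level was 346, 698, 718 and 543 CPM in the control libraries and 1462, 1822 and 1784 CPM in the NV libraries. Control replicate 1 was the lowest and the groups did not overlap. Aurkb, the kinase of the chromosomal passenger complex, was at 17.2, 35.2, 39.4 and 42.2 CPM in the control libraries and 98.6, 129 and 140.2 CPM in the NV libraries, a log2 fold change of 1.86 ± 0.25 (SE) (adjusted p = 0.00169). Ckap2l, a spindle protein, rose 5.35-fold (adjusted p = 2.72e-04), Kif22, a chromosome-arm kinesin, 3.31-fold and Dlgap5, a spindle stabilizer, 4.97-fold. In the kinetochore and spindle checkpoint list 19 of 34 were higher (9 without NV replicate 3, 9 against control replicates 2 and 3 alone and 5 with all 3 groups in one fit). Ndc80, the microtubule-binding subunit of the outer kinetochore, was at 7.86, 10.8, 8.95 and 8.0 CPM in the control libraries and 36.5, 36.3 and 36.4 CPM in the NV libraries. The spread within each group was small beside the gap between them, and the log2 fold change was 2.02 ± 0.22 (SE) (adjusted p = 5.44e-04). Hjurp, the chaperone of the centromeric histone, rose 1.91-fold and Mad2l1, a checkpoint protein, 2.13-fold. Of the anaphase promoting complex and mitotic exit genes 5 of 19 were higher: the activators Cdc20 (35.3 to 105 CPM) and Fzr1 (83.9 to 152 CPM), the inhibitor Fbxo5 (16.5 to 43.7 CPM), separase Espl1 (8.33 to 34.3 CPM) and Ube2c. There was 1 with all 3 groups in one fit. The core subunits on the list (Anapc1 to Anapc13 and Cdc16, Cdc23, Cdc26 and Cdc27) were not called. Of 26 condensin, cohesin and chromosome structure genes 14 were higher (9 without NV replicate 3, 9 against control replicates 2 and 3 alone and 6 with all 3 groups in one fit). Top2a, the topoisomerase of dividing cells, was at 47, 86.9, 101 and 56.1 CPM in the control libraries and 268, 299 and 251 CPM in the NV libraries, a log2 fold change of 1.90 ± 0.22 (SE) (adjusted p = 9.11e-04), and Mki67, the proliferation antigen, rose from 38.8 to 145 CPM. The cohesin genes Smc1a, Smc3, Stag1, Stag2 and Rad21 had log2 fold changes from -0.10 to 0.26 and were not called. Pbk, a mitotic kinase outside these lists, was among the 10 DEGs with the smallest p (40.6 to 138 CPM, adjusted p = 1.03e-04). Without NV replicate 3 Fzr1 was not called (adjusted p = 0.0517). Fzr1 was not called against control replicates 2 and 3 alone (adjusted p = 0.0501).

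Promoters of genes that rose together are shown for the mitotic and the licensing list, taken from RefSeq (GRCm38.p6, a later build than that of the counts, 250 bases before to 50 after the annotated start). The letters in capitals mark the cell cycle genes homology region (CHR, TTTGAA or TTCGAA) and CCAAT in the first pair and an E2F site (TTTGGCGC or TTTCCCGC) in the second, searched on both strands, so a match can read as its reverse complement. The matches shown did not overlap each other. Each pair was taken by smallest p from DEGs of its list whose promoter held these letters, so their presence here follows from the choice.
Ckap2l (chr2:129297163-129297462, minus strand): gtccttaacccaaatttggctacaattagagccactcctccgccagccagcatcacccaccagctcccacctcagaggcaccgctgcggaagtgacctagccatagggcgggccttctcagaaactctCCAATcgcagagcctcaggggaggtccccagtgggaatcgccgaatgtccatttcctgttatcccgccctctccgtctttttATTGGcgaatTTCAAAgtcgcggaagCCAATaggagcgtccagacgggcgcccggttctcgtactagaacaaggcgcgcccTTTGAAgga
Kif22 (chr7:127042371-127042670, minus strand): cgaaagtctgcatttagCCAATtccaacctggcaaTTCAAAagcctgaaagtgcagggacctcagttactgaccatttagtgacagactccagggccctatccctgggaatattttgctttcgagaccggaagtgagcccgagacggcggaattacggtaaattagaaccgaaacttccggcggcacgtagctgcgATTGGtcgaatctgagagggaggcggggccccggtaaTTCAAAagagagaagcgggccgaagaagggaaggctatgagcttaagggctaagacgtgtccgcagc
Cdt1 (chr8:122567765-122568064, plus strand): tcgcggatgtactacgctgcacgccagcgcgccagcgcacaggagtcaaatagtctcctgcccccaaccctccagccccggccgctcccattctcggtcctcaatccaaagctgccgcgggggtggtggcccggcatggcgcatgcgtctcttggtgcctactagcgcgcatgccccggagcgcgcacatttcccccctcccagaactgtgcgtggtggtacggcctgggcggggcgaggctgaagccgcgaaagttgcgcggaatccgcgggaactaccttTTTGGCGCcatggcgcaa
Mcm5 (chr8:75109259-75109558, plus strand): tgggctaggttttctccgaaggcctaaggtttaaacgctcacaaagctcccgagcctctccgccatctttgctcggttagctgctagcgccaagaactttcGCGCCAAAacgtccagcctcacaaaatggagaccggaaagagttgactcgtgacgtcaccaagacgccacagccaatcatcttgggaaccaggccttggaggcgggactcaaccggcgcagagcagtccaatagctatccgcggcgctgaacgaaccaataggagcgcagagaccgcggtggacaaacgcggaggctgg
The Ckap2l promoter held a CHR beginning 30 bases before the start and CCAAT 122, 40 and 14 bases before it, with a CHR also 42 bases after it, and that of Kif22 held CHR at 17 and 215 and CCAAT at 54 and 233 bases before the start. CHR and CCAAT stood together in 20 of the 31 mitotic spindle promoters found (64.5%), against 7.70% of 27025 promoters, the first listed for each symbol of the table. CHR, with or without CCAAT, was in 80.6% against 19.4%, and CCAAT, with or without CHR, in 67.7% against 37.9%. The E2F letters were in 8 of 17 licensing promoters (47.1%) against 1.63% of all. Over the 8781 of 13462 tested genes with a promoter in the table, the shares were 5.98% for CHR with CCAAT, 13.8% for CHR, 38.8% for CCAAT and 3.18% for E2F. The E2F letters began 149 bases before the start in Mcm5 and 33 bases after it in Cdt1. These shares describe letters in a window and not bound sites. The table held under 80% of the tested genes and of the DEGs, so the former shares are not a full background and none is given for the DEGs.

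**Figure D3:**
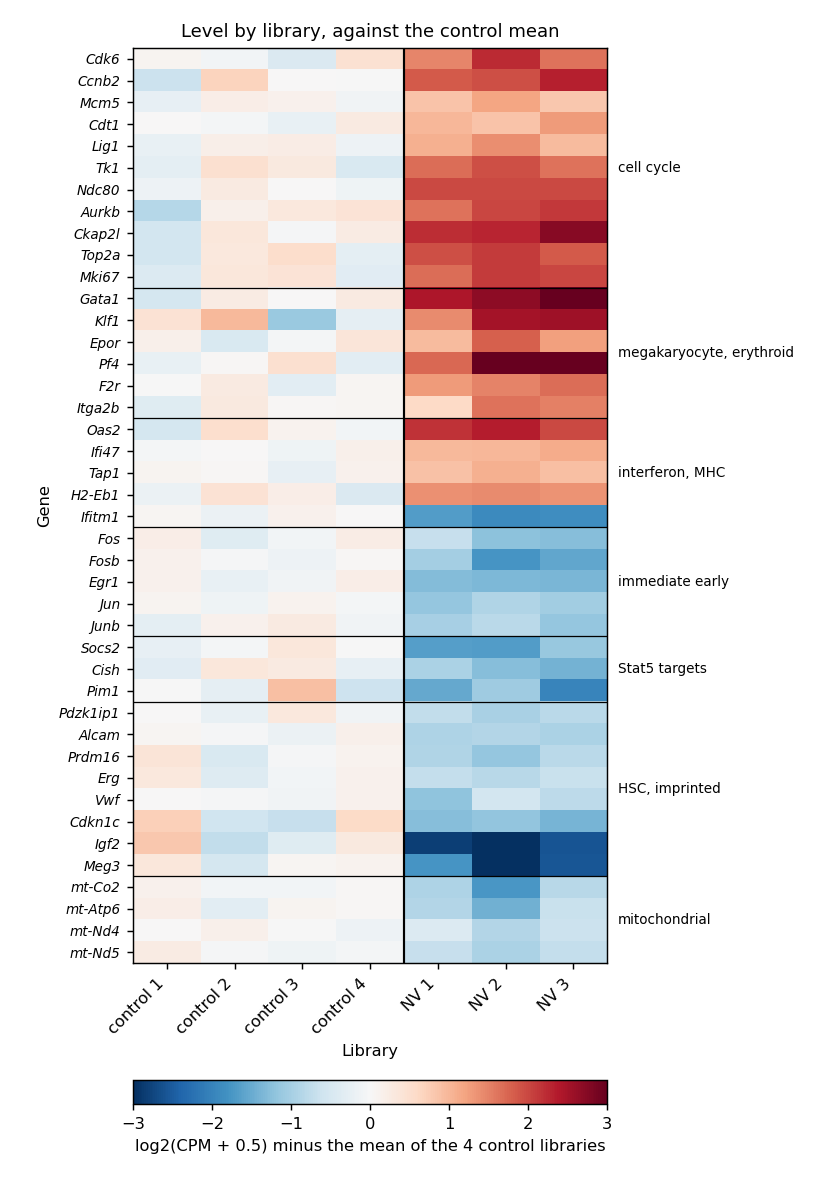
Level of 42 genes in each library (columns, control left and NV right of the line), as log2(CPM + 0.5) minus the mean of the 4 control libraries, in groups of related genes (rows). Cell cycle, megakaryocyte and erythroid, interferon and MHC genes other than Ifitm1 are red in NV libraries and immediate early, Stat5 target, HSC, imprinted and mitochondrial genes are blue; control replicates 1 and 4 are higher than replicates 2 and 3 for Cdkn1c and Igf2.

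Immediate early genes are transcription factors and feedback regulators that signals induce within minutes, and many are Erk targets. Of 22 tested 12 fell in NV HSC (54.5%, against 2.21% of all genes) and 0 rose. Log2 fold changes were above 0 in 3, and the median was -0.83. The count was 8 without NV replicate 2 and 9 without NV replicate 3 and against control replicates 2 and 3 alone, and 7 were called whichever library was left out. The fit of all 3 groups called 3. Fos was at 3720.1, 2520.2, 3029 and 3781 CPM in the control libraries and 2006, 1375 and 1324 CPM in the NV libraries. Every NV library was below every control library, and the log2 fold change was -1.06 ± 0.17 (SE) (adjusted p = 0.00359). Egr1, which restrains HSC division and exit from the niche, was at 1310.3, 1036, 1115 and 1386 CPM in the control libraries and 490.2, 469.9 and 468 CPM in the NV libraries. The NV values lay within a narrow range well below the controls, with a log2 fold change of -1.35 ± 0.11 (SE) (adjusted p = 8.59e-05). The AP-1 subunits Fosb (359 to 135 CPM), Jun (287 to 139.7 CPM) and Junb (383 to 192 CPM) fell, as did the phosphatases Dusp1 and Dusp2, the transcription factors Klf4, Klf6 and Maff, and Ier2 and Zfp36. Ppp1r15a, a phosphatase subunit of the stress response outside this list, fell from 405 to 142 CPM (adjusted p = 8.59e-05). Calls were lost in the leave-one-out fits for Dusp1 and Klf4 without NV replicate 2, Klf6 without NV replicate 3, Maff without NV replicate 1, 2 or 3 or control replicate 2 or 3, and Zfp36 without NV replicate 2 or 3, the highest adjusted p being 0.148. Dusp1, Klf4 and Zfp36 were not called against control replicates 2 and 3 alone (adjusted p 0.0871 to 0.11).

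Of 21 tested Erk feedback and target genes Etv5 and Il1b were higher (9.52%, against 2.55% of all genes) and Dusp5 lower (4.76%, against 2.21%), and the median log2 fold change was 0.38. Etv5 was not called without NV replicate 2 (adjusted p up to 0.0553). Dusp5 was not called without NV replicate 1, NV replicate 2 or control replicate 2 (adjusted p up to 0.132). Il1b was not called without NV replicate 2 or NV replicate 3 (adjusted p up to 0.0751). EdgeR called 0 with all 3 groups in one fit, where 6 had an unadjusted p under 0.05. Etv5, an Ets factor induced by Erk, was at 71.6, 74.9, 46 and 80.8 CPM in the control libraries and 146, 152 and 114 CPM in the NV libraries. All NV libraries exceeded all control libraries, and the change was 2.02-fold (adjusted p = 0.00916). Dusp5, a nuclear Erk phosphatase, was at 30.9, 81.7, 61.4 and 46.6 CPM in the control libraries and 15.4, 15.3 and 30.1 CPM in the NV libraries, with the lowest control close above the highest NV library (adjusted p = 0.026). Il1b was not counted in any control library and was at 1.14 to 2.85 CPM in NV libraries, at least 25.4-fold higher. Of 14 Stat5 targets, which cytokines such as thrombopoietin induce, Socs2, Cish and Pim1 were lower (21.4%, against 2.21% of all genes) and 0 higher. Against control replicates 2 and 3 alone 5 were lower. Socs2, a feedback inhibitor of cytokine receptors, was at 89.4, 102, 135 and 106 CPM in the control libraries and 33.9, 33.3 and 48.1 CPM in the NV libraries. The groups were apart, with a log2 fold change of -1.50 ± 0.19 (SE) (adjusted p = 0.00134). Cish, a related inhibitor, fell from 247 to 105 CPM (adjusted p = 0.00299) and the kinase Pim1 from 12.5 to 3.79 CPM (adjusted p = 0.0441). Pim1 was not called without NV replicate 1, NV replicate 2, NV replicate 3, control replicate 1, control replicate 2 or control replicate 3 (adjusted p up to 0.162). Il1b and Pim1 were not called against control replicates 2 and 3 alone (adjusted p 0.0641 to 0.0722).

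**Figure D4:**
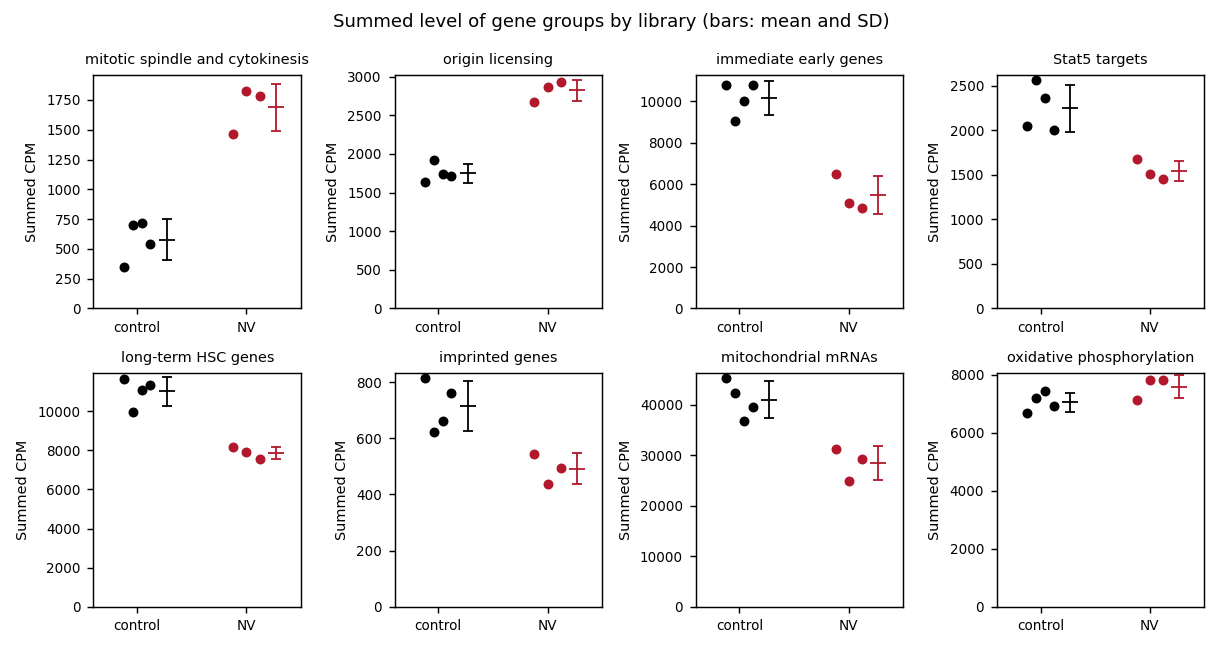
Summed CPM of the genes of 8 groups in each library (points; control black, NV red), with the mean and SD beside them. The groups do not overlap for the mitotic, licensing, immediate early, Stat5 target, long-term HSC, imprinted and mitochondrial mRNA sums, and they overlap for the nuclear oxidative phosphorylation genes.

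Some of the genes that mark long-term HSC fell. Of 33 tested 12 fell (36.4%, against 2.21% of all genes) and 1, Ly6a, rose (3.03%, against 2.55%). The median log2 fold change was -0.55. Without NV replicate 2 or NV replicate 3 there were 6 lower members, 5 against control replicates 2 and 3 alone and 6 with all 3 groups in one fit. Ifitm1, an interferon-induced membrane protein high in long-term HSC, was at 1546, 1309, 1620.5 and 1491 CPM in the control libraries and 463, 396 and 409 CPM in the NV libraries. It had the second smallest p of all genes, with a log2 fold change of -1.82 ± 0.11 (SE) (adjusted p = 4.07e-06). Pdzk1ip1, a membrane protein of HSC, fell from 362 to 199.6 CPM, and Alcam, an adhesion molecule, from 73.3 to 38.3 CPM (adjusted p = 0.0047). Procr (EPCR, 134 to 81.3 CPM), Fgd5 (92.3 to 42.2 CPM), Neo1 (24.6 to 8.54 CPM), Mllt3 (357 to 213 CPM), Sult1a1 (381 to 174 CPM) and Vwf (225 to 126 CPM) also fell. Other genes of the list were not called, with log2 fold changes of -0.31 for Mecom, -0.47 for Hlf, -1.12 for Hoxb5 (adjusted p = 0.0828), 0.18 for Gata2, 0.12 for Meis1 and 0.42 for Tek. Leaving out 1 library ended the calls of Ly6a without NV replicate 1, Procr without NV replicate 3, Fgd5 without NV replicate 2 or 3 or control replicate 1 or 4, and Neo1 without NV replicate 2. It also ended those of Mllt3 without NV replicate 2 or 3, and Sult1a1 without NV replicate 1, 2 or 3 or control replicate 2, the highest adjusted p being 0.107. Ly6a, Alcam, Procr, Fgd5, Mllt3 and Vwf were not called against control replicates 2 and 3 alone (adjusted p 0.0544 to 0.218).

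Of 34 HSC transcription factors 5 fell (14.7%, against 2.21% of all genes) and 0 rose, and the lower count ranged from 0 (without NV replicate 2, NV replicate 3 or control replicate 1) to 4. It was 1 against control replicates 2 and 3 alone and 0 by edgeR with all 3 groups in one fit, where 8 had an unadjusted p under 0.05. Prdm16, which maintains HSC, was at 62.9, 35, 47.4 and 52 CPM in the control libraries and 25.5, 21.2 and 27.2 CPM in the NV libraries. The groups did not overlap (adjusted p = 0.0205). Erg fell from 94.6 to 55.5 CPM and Hmga2 from 28.1 to 14.4 CPM. Hoxa5 fell from 74.7 to 46.7 CPM (adjusted p = 0.0468), with control replicate 3 at 96.4 CPM and the other controls at 66.7 to 68.0 CPM, and Bmi1, a Polycomb subunit that sustains self-renewal, from 102 to 68 CPM (adjusted p = 0.0477). Runx1, Tal1, Lmo2, Nfe2 and Hoxa9 had log2 fold changes from -0.13 to -0.03 and were not called. Of 24 quiescence genes 5 fell (Cdkn1c, Egr1, Junb, Arrdc4 and Ndn, 20.8%, against 2.21% of all genes) and 1, Rgs1, rose (4.17%, against 2.55%). The lower count was 2 without NV replicate 2 or NV replicate 3, 3 without control replicate 1 or 4 and against control replicates 2 and 3 alone, and 2 with all 3 groups in one fit. Rgs1, a regulator of G protein signalling that dampens chemokine receptors, was at 395, 608, 477 and 423 CPM in the control libraries and 1362, 983 and 1034 CPM in the NV libraries, a 2.37-fold increase (adjusted p = 0.00132). Foxo1, Foxo3, Txnip and Btg1 had log2 fold changes from -0.39 to -0.20 and were not called. The leave-one-out fits did not call Prdm16, Erg, Hmga2 and Cdkn1c without NV replicate 1, 2 or 3 or control replicate 1 or 4, Hoxa5 without NV replicate 1, 2 or 3 or control replicate 1, 2, 3 or 4, Bmi1 without NV replicate 1, 2 or 3 or control replicate 1, 2 or 4, and Arrdc4 without NV replicate 2 or 3. Nor did they call Ndn without NV replicate 2 or 3 or control replicate 1 or 4, the highest adjusted p being 0.193. Prdm16, Erg, Hmga2, Hoxa5, Bmi1, Cdkn1c and Ndn were not called against control replicates 2 and 3 alone (adjusted p 0.087 to 0.268).

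Imprinted genes are transcribed from the allele of 1 parent and include growth regulators active in HSC. Log2 fold changes were below 0 in 17 of 17 tested members. Of these 4 were lower DEGs (Igf2, Meg3, Cdkn1c and Ndn, 23.5%, against 2.21% of all genes). The median was -0.76. The count was 2 without NV replicate 2, NV replicate 3, control replicate 1 or control replicate 4, and 3 against control replicates 2 and 3 alone. Igf2, a fetal growth factor, was at 39.8, 13.3, 17.3 and 27.9 CPM in the control libraries and 2.76, 1.79 and 3.34 CPM in the NV libraries. All NV libraries were below all control libraries, with a log2 fold change of -3.22 ± 0.43 (SE) (adjusted p = 0.00169). Meg3, a noncoding RNA of the Dlk1 domain, fell from 25.7 to 4.41 CPM (adjusted p = 0.00299). H19 was at 5.96 ± 5.13 CPM in control and 0.881 ± 0.839 CPM in NV, a log2 fold change of -2.76 that was not called (adjusted p = 0.164). Igf1, which is not imprinted, was at 48.6, 15.1, 25.8 and 42.5 CPM in the control libraries and 0.162, 1.86 and 2.06 CPM in the NV libraries, and it had a decrease among the largest, -4.59 ± 0.62 (SE) on the log2 scale (adjusted p = 0.00169).

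Some genes of the megakaryocyte and erythroid branches rose, and a pair of platelet genes that HSC also express fell. Of 21 megakaryocyte genes 8 were higher (38.1%, against 2.55% of all genes) and 2, Clu and Vwf, lower (9.52%, against 2.21%). Without NV replicate 2 or NV replicate 3 there were 4 higher members, 3 against control replicates 2 and 3 alone and 4 with all 3 groups in one fit. Pf4, a chemokine of platelet granules, was at 17.7, 21.3, 29.1 and 16.5 CPM in the control libraries and 69.7, 231 and 182 CPM in the NV libraries. NV replicate 1 was the lowest of the NV libraries and still above every control library, and the log2 fold change was 2.91 ± 0.34 (SE) (adjusted p = 9.11e-04). F2r, a thrombin receptor, rose from 61.4 to 172 CPM, F2rl2, a related receptor, from 4.25 to 29.8 CPM, and Itga2b (CD41) from 59.7 to 148 CPM (adjusted p = 0.00684). Vwf, a clotting protein that also marks a platelet-biased HSC subset, was at 226, 218, 209.6 and 246 CPM in the control libraries and 97.2, 152 and 129.6 CPM in the NV libraries (adjusted p = 0.00792). Clu (clusterin) fell from 151 to 60.7 CPM. Selp, Mmrn1, Itgb3 and Rab27b had log2 fold changes from -0.64 to 0.16 and were not called. The summed level of the list was 2345 to 2501 CPM in control and 2181 to 2616 CPM in NV libraries, and the groups overlapped. Vwf and Itga2b were not called against control replicates 2 and 3 alone (adjusted p 0.0746 to 0.0782).

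Of 9 tested erythroid genes 4 rose (44.4%, against 2.55% of all genes): Gata1, Klf1, Epor and Aqp1. The count was 1 without NV replicate 2 and 2 without NV replicate 3, control replicate 1 or control replicate 4, against control replicates 2 and 3 alone and with all 3 groups in one fit. Gata1, the master transcription factor of erythroid and megakaryocyte cells, was at 9.14, 16.1, 13.7 and 16.3 CPM in the control libraries and 74.1, 89.2 and 115 CPM in the NV libraries. The lowest NV library was more than 4 times the highest control library, and the log2 fold change was 2.74 ± 0.23 (SE) (adjusted p = 8.59e-05). Klf1 rose from 3.99 to 17.9 CPM (adjusted p = 0.0257) and the erythropoietin receptor Epor from 17 to 43.8 CPM (adjusted p = 0.0105). Mfsd2b, a sphingosine phosphate exporter of red cells and platelets named as a large increase, was at 13.9, 24, 15.5 and 20.8 CPM in the control libraries and 91.2, 155 and 179 CPM in the NV libraries (adjusted p = 8.59e-05). Of the haemoglobin genes, Hbb-b2 was at 11.1 ± 6.54 CPM in control and 7.62 ± 3.79 CPM in NV (adjusted p = 0.601), with reads it may share with other beta globin genes, and Hba-a1 was at 0 in all NV libraries. Among the leave-one-out fits, edgeR did not call Klf1 without NV replicate 2 or 3 or control replicate 1 or 4, Epor without NV replicate 2, and Aqp1 without NV replicate 2 or 3 or control replicate 1, 2 or 4, the highest adjusted p being 0.203. Klf1 and Aqp1 were not called against control replicates 2 and 3 alone (adjusted p 0.152 to 0.218).

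Of 20 multipotent progenitor and myeloid priming genes Plac8 and Vim rose and Gimap6 fell (15% called, against 4.76% of all genes). Plac8, a gene of early progenitors, was at 35.1, 24.8, 28.1 and 33.8 CPM in the control libraries and 198, 181 and 206 CPM in the NV libraries. It had the smallest p of all genes and a 6.44-fold change, 2.69 ± 0.15 (SE) on the log2 scale (adjusted p = 4.07e-06). Vim (vimentin) rose from 283 to 465 CPM, and Gimap6, a GTPase of lymphoid cells and HSC, fell from 599 to 350.3 CPM. Cd34 was at 118 ± 16.4 CPM in control and 129 ± 16.8 CPM in NV and Csf3r at 51.1 ± 11.4 CPM in control and 57.5 ± 9.62 CPM in NV, and neither was called. Cd48, excluded by the sort, was at 0.16 to 3.38 CPM in control and 2.26 to 6.00 CPM in NV libraries (adjusted p = 0.574). On the list of 26 lymphoid genes 10 were tested and 16 had too few counts to be tested, Il7r, Rag1, Dntt and Pax5 among them at 0 in all 7 libraries. Of 8 mature myeloid genes 0 were DEGs by edgeR, 1 had an unadjusted p under 0.05, DESeq2 called 1 lower and limma-voom 0, and the summed level of that list was 460.5 to 575 CPM in control and 521 to 552 CPM in NV libraries. Without NV replicate 3 Gimap6 was not called (adjusted p = 0.0554). Gimap6 was not called against control replicates 2 and 3 alone (adjusted p = 0.0645).

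Interferon-stimulated genes rose in part. Of 43 tested 15 were higher (34.9%, against 2.55% of all genes) and 1, Ifitm1, lower (2.33%, against 2.21%). The median log2 fold change was 0.57. Leaving out NV replicate 2 gave 8 and leaving out NV replicate 3 gave 9, and there were 13 against control replicates 2 and 3 alone and 9 with all 3 groups in one fit. Oas2, a sensor of double-stranded RNA, was at 23, 47.5, 35.7 and 31.7 CPM in the control libraries and 153, 174 and 133 CPM in the NV libraries. The groups were clearly apart, and the log2 fold change was 2.14 ± 0.21 (SE) (adjusted p = 2.72e-04). Ifi47, an interferon-induced GTPase, rose from 217 to 444 CPM, and Irf7 (33.8 to 95.4 CPM), Usp18 (20.8 to 56.2 CPM) and Mx1 (10.1 to 28.9 CPM) rose too. Other members were not called, among them Gbp2 at 0.07, Ifih1 at 0.14 and Ifitm3 at -0.31 on the log2 scale. Cxcl9, a chemokine induced by interferon gamma, had the largest log2 fold change among the higher DEGs that reached 10 CPM in NV HSC. It was at 1.1, 0.773, 0.326 and 0.69 CPM in the control libraries and 24.8, 3.31 and 1.96 CPM in the NV libraries, so NV replicate 1 carried most of it (adjusted p = 0.0201). Cxcl9 was not called without NV replicate 1, control replicate 2 or control replicate 4 (adjusted p up to 0.283). Calls were lost in the leave-one-out fits for Mx1 without NV replicate 2 or 3, the highest adjusted p being 0.108. Cxcl9 was not called against control replicates 2 and 3 alone (adjusted p = 0.117).

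Of 22 genes of MHC and antigen presentation 8 were higher (36.4%, against 2.55% of all genes) and 0 lower. The median log2 fold change was 0.56. The count was 6 without NV replicate 2 or NV replicate 3, 5 against control replicates 2 and 3 alone and 3 with all 3 groups in one fit. H2-Eb1, a class II chain, was at 25, 38.2, 32.4 and 20.8 CPM in the control libraries and 73.9, 76.2 and 73.3 CPM in the NV libraries. Every NV library was above every control library, with a log2 fold change of 1.35 ± 0.20 (SE) (adjusted p = 0.00299). H2-Ob, a class II peptide-loading chain, rose from 11.6 to 46.7 CPM, H2-Ab1 from 53.3 to 121 CPM, and Tap1, the peptide transporter of class I, from 172 to 333 CPM. The classical class I genes were not called, with log2 fold changes of 0.25 for H2-K1, 0.25 for H2-D1 and 0.11 for B2m. H2-Q7 rose from 233 to 485 CPM, but it shares most of its sequence with other Q genes, and how reads that map to several places were counted is not given in the sources used here. Lgals9 (galectin 9) rose from 360.1 to 634 CPM (adjusted p = 0.00146). H2-Ab1 was not called against control replicates 2 and 3 alone (adjusted p = 0.0642).

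Some surface and receptor genes fell. Of 37 adhesion, matrix and surface genes 7 fell (18.9%, against 2.21% of all genes) and 2 rose (5.41%, against 2.55%), Itgb2 among the latter. The fit of all 3 groups called 3 lower and 1 higher. Itgb2, the leukocyte integrin beta chain, was at 18.5, 14.4, 20.9 and 23.9 CPM in the control libraries and 56.7, 65.3 and 79.5 CPM in the NV libraries. The lowest NV library was more than 2 times the highest control library (adjusted p = 9.48e-04). Cd63, a tetraspanin, fell from 276 to 157 CPM (adjusted p = 0.00264). Ncam2 and Matn2 had 0 counts in all NV libraries and means of 6.00 and 2.63 CPM in control libraries, at least 74-fold and 32.4-fold lower. Of 31 cytokine and niche receptors 1 was higher, Epor (3.23%, against 2.55% of all genes), and 2 were lower (6.45%, against 2.21%), Il6st (gp130, 43.2 to 20.6 CPM) and Ptger4, a prostaglandin E2 receptor (56.1 to 27.6 CPM). The lower count of the receptor list was 0 without NV replicate 2 or NV replicate 3 and against control replicates 2 and 3 alone. It was 4 without control replicate 2. Csf2rb, Csf3r, Tgfbr1, Tgfbr2, Ifngr1 and Notch2 were not called. Of 12 endothelial and stromal genes Emcn (endomucin), which HSC also express, fell from 97 to 35.5 CPM (adjusted p = 0.00306). EdgeR called none of the rest with all 7 libraries. Counted with Emcn, 2 members were lower without control replicate 2 or control replicate 4, and DESeq2 called 3. Tek, Tie1 and Eng were at 67.1 to 238 CPM, Pecam1 and Kdr at 7.76 to 38.6 CPM, and Cdh5, Flt1, Lyve1, Col1a1 and Cxcl12 at 0 to 1.52 CPM in all libraries, and the summed level of that list was 577 to 599 CPM in control and 543 to 606 CPM in NV libraries. Leaving out 1 library ended the calls of Epor without NV replicate 2, Il6st without NV replicate 2 or 3 or control replicate 3 or 4, and Ptger4 without NV replicate 2 or 3, the highest adjusted p being 0.109. Matn2, Il6st and Ptger4 were not called against control replicates 2 and 3 alone (adjusted p 0.0503 to 0.108).

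Other large changes fell outside these lists. Gem, a small GTPase that inhibits calcium channels, was at 48.4, 35.5, 42.5 and 30.5 CPM in the control libraries and 302, 220.1 and 233 CPM in the NV libraries. The lowest NV library was more than 4 times the highest control, and the log2 fold change was 2.68 ± 0.17 (SE) (adjusted p = 1.00e-05). Robo3, an axon guidance receptor, rose from 6.22 to 45.6 CPM, Pde10a, a phosphodiesterase, from 1.64 to 16.8 CPM, Ache (acetylcholinesterase) from 2.02 to 13.6 CPM, Eme1, a subunit of a DNA junction endonuclease, from 2.02 to 14.4 CPM, and Fam46a from 2.27 to 14.7 CPM, with adjusted p from 0.00133 to 0.0212. By the size of the change in CPM, the tubulins Tubb5 (1014 to 1608 CPM) and Tuba1b (457 to 765 CPM) and Pcna (472 to 728 CPM), the sliding clamp of replication, were among the 6 largest increases. Tuba1b is nearly identical to other alpha tubulin genes, so its share of their reads is uncertain. Sva was likewise without a count in the controls and at 6.19 to 8.28 CPM in NV libraries, at least 85.3-fold higher. The leave-one-out fits did not call Pde10a without NV replicate 2 or 3 or control replicate 4, Ache without NV replicate 2 or 3 or control replicate 1, Eme1 and Tuba1b without NV replicate 2 or 3, and Pcna without NV replicate 1, 2 or 3 or control replicate 1 or 4, the highest adjusted p being 0.122. For Pcna without control replicate 4 it was the fold change that fell short (adjusted p up to 0.049). Pde10a, Eme1, Tuba1b and Pcna were not called against control replicates 2 and 3 alone (adjusted p 0.0645 to 0.0908).

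The largest decrease was in Slc17a8, a vesicular glutamate transporter. It was at 13.7, 37.3, 39.6 and 22.1 CPM in the control libraries and had 0 counts in all NV libraries, at least 347-fold lower (adjusted p = 1.26e-04). It was 1 of 17 DEGs with 0 counts in all NV libraries, against 2 DEGs with 0 in all control libraries. The counts are not on an equal footing. A gene at 0 in a group passed the filter only through the other group, and the groups held 3 NV and 4 control libraries. The others of these 17 that the naming rule took were at means of 2.01 to 6.00 CPM in control libraries (Ncam2, Matn2, Chac1, St6galnac2, Acox2, Fblim1, Htr7 and Myo5b). Gda (guanine deaminase) was at 221, 211, 275 and 178 CPM in the control libraries and 53.6, 39.9 and 46 CPM in the NV libraries. It had the fourth smallest p of all genes, with a log2 fold change of -2.25 ± 0.17 (SE) (adjusted p = 4.72e-05). Klrb1c (NK1.1) fell from 27.1 to 1.51 CPM, Pdgfc, a platelet-derived growth factor, from 33.6 to 2.9 CPM, Clec7a (Dectin-1) from 22.4 to 3.54 CPM, Dsg2 (desmoglein 2) from 13.8 to 1.51 CPM and Ramp2, a receptor coactivator, from 12.4 to 1.65 CPM, with adjusted p from 0.00146 to 0.0168. Ifitm7 (11.2 to 1.98 CPM) and the small heat shock protein Hspb8 (10.4 to 1.93 CPM) fell as well. Among the leave-one-out fits, edgeR did not call Chac1 and Fblim1 without NV replicate 1, 2 or 3 or control replicate 2, 3 or 4, St6galnac2 without NV replicate 1, 2 or 3 or control replicate 1, 2 or 4, Htr7 without NV replicate 1, 2 or 3 or control replicate 1, 3 or 4, and Myo5b without NV replicate 1, 2 or 3 or control replicate 1, 2 or 3. It also did not call Ramp2 without NV replicate 1, 2 or 3 or control replicate 1 or 4, Ifitm7 without NV replicate 2 or 3 or control replicate 1 or 4, and Hspb8 without NV replicate 1 or 2, the highest adjusted p being 0.146. In some of these fits Chac1, St6galnac2, Fblim1, Htr7 and Myo5b had too few counts to be tested. Matn2, Clec7a, Ramp2, Ifitm7 and Hspb8 were not called against control replicates 2 and 3 alone (adjusted p 0.0503 to 0.226), where St6galnac2 and Htr7 had too few counts to be tested.

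Some transcripts of the mitochondrial genome, which encodes core subunits of the respiratory chain, fell in NV HSC. Of 17 tested mitochondrial genes 8 were DEGs, 8 lower and 0 higher, and they were 47.1% of that chromosome's tested genes against 4.76% of all. They were mt-Nd2, mt-Nd3, mt-Nd4, mt-Nd5 and mt-Nd6 of complex I, mt-Co2 of complex IV, and mt-Atp6 and mt-Atp8 of ATP synthase. The 13 mRNAs summed to 45313, 42327, 36889.7 and 39501 CPM in the control libraries and 31283, 24827 and 29357 CPM in the NV libraries. The highest NV library was below the lowest control library. As a share of all counts they were 3.59% to 4.54% in control and 2.52% to 3.13% in NV libraries. mt-Nd5 was at 1749, 1435, 1340.5 and 1405 CPM in the control libraries and 913, 768 and 904 CPM in the NV libraries, a log2 fold change of -0.78 ± 0.11 (SE) (adjusted p = 0.00212), and mt-Co2 was at 641, 554, 556 and 602 CPM in the control libraries and 311, 174 and 332 CPM in the NV libraries, a log2 fold change of -1.11 ± 0.19 (SE) (adjusted p = 0.00504). mt-Nd1, mt-Cytb and mt-Co1 were under the fold threshold, and mt-Co1, the most counted of them, was at 22165 ± 3645 CPM in control and 16053 ± 1824 CPM in NV (log2 fold change -0.47, adjusted p = 0.0389). Of 36 nuclear oxidative phosphorylation genes 0 were DEGs by edgeR, DESeq2 or limma-voom and 6 had an unadjusted p under 0.05 in edgeR, and their median log2 fold change was 0.09. Cyc1 (cytochrome c1) was at 153 ± 17.5 CPM in control and 204 ± 16 CPM in NV and Ndufa9 at 64.6 ± 4.67 CPM in control and 87.7 ± 2.1 CPM in NV. Without NV replicate 2 there were 3 mitochondrial DEGs, without NV replicate 3 there were 5, against control replicates 2 and 3 alone 4, and with all 3 groups in one fit 0. The 2 mitochondrial rRNAs summed to 346 to 607 CPM in control and 350.1 to 364 CPM in NV libraries and were not called with all 7 libraries. mt-Rnr2 was called lower without control replicate 4 and was 1 of the 4 called against control replicates 2 and 3 alone (log2 fold change -0.81, adjusted p = 0.0116). mt-Atp8 overlaps mt-Atp6, mt-Nd4l overlaps mt-Nd4 and mt-Nd6 overlaps mt-Nd5 on the other strand, and how shared reads were counted is not given in the sources used here. Calls were lost in the leave-one-out fits for mt-Nd2 without NV replicate 2, mt-Nd3 without NV replicate 2 or 3 or control replicate 1 or 4, mt-Nd4 without NV replicate 2 or control replicate 2, and mt-Nd6 without NV replicate 2 or 3 or control replicate 1. They were lost too for mt-Atp8 without NV replicate 2 or 3, the highest adjusted p being 0.0919. For mt-Nd4 the p threshold was met in each of these fits and the fold change fell short (adjusted p up to 0.0319). mt-Nd3, mt-Nd6, mt-Co2, mt-Atp6 and mt-Atp8 were not called against control replicates 2 and 3 alone (adjusted p 0.0515 to 0.194).

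**Figure D5:**
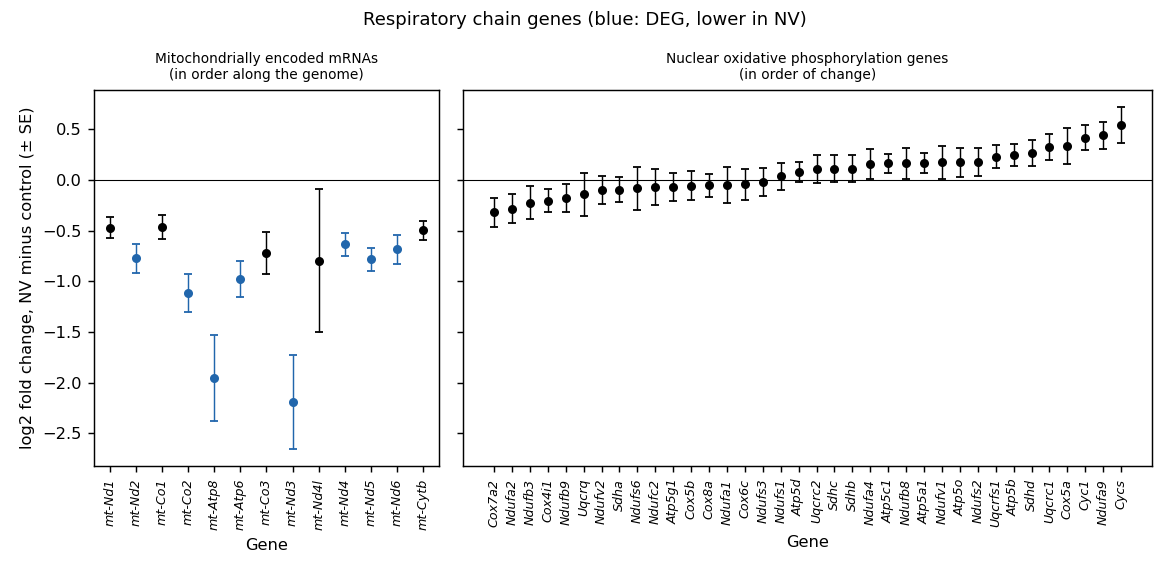
Log2 fold change, NV minus control, with its SE (bars) for the 13 mRNAs of the mitochondrial genome (left) and 36 nuclear oxidative phosphorylation genes (right). Blue points are DEGs lower in NV, 8 of 13 on the left and 0 of 36 on the right, and all 13 mitochondrial values are below 0.

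Of 40 cytosolic ribosomal protein genes 3 fell (Rps27, Rpl37 and Rpl30), 7.5% against 2.21% of all genes, 0 rose, and the median log2 fold change was -0.20. Rpl30 was at 1074, 878, 1121 and 1067 CPM in the control libraries and 716, 692 and 647 CPM in the NV libraries (adjusted p = 0.00646). The summed level of the list was 99535 to 109641 CPM in control and 88124 to 95679 CPM in NV libraries, and the groups did not overlap. Many of these genes have processed pseudogenes, so their reads are uncertain, and the 3 calls became 0 without NV replicate 3 and against control replicates 2 and 3 alone, and 1 without control replicate 3. Of 33 ribosome biogenesis genes and Myc targets 0 were DEGs by edgeR, DESeq2 or limma-voom, and 5 had an unadjusted p under 0.05 in edgeR. EdgeR called 1 lower against control replicates 2 and 3 alone and without control replicate 4, and 1 higher without control replicate 2. Ran, the GTPase of nuclear transport, was at 555 ± 70.0 CPM in control and 804 ± 18.3 CPM in NV, an adjusted p of 0.0135 with a fold change of 1.45, under the threshold of 1.5. Of 22 glycolysis genes 0 were DEGs by any of the 3 tools, and 4 had an unadjusted p under 0.05 in edgeR. Ldhb, a lactate dehydrogenase subunit, was at 203 ± 19.7 CPM in control and 144 ± 5.15 CPM in NV (adjusted p = 0.0281), also under the fold threshold, and Pfkp at 67.5 ± 7.52 CPM in control and 50.5 ± 5.2 CPM in NV (adjusted p = 0.162). Of 28 cholesterol and fatty acid synthesis genes 0 were DEGs by edgeR, 6 had an unadjusted p under 0.05, and DESeq2 and limma-voom each called 1 lower. Those of smallest p were Fdft1 at 46.7 ± 8.57 CPM in control and 29.1 ± 4.16 CPM in NV (adjusted p = 0.0718) and Sc4mol at 53.9 ± 10.5 CPM in control and 39.6 ± 0.717 CPM in NV (adjusted p = 0.20). Of 15 heat shock and stress genes 2 fell (13.3%, against 2.21% of all genes). Trib3, an Atf4 target, fell from 39.5 to 16.4 CPM (adjusted p = 0.0126), and Chac1 fell to 0 counts in all NV libraries, though 1 control library was also at 0. Chac1 was not called without NV replicate 1, NV replicate 2 or NV replicate 3 (adjusted p up to 0.146), and had too few counts to be tested without control replicate 2, control replicate 3 or control replicate 4. Hspa8, Hsp90aa1, Hsp90ab1 and Dnajb1 had log2 fold changes from -0.27 to 0.21 and were not called. Leaving out 1 library ended the calls of Rps27 without NV replicate 3, Rpl37 without NV replicate 1, 2 or 3 or control replicate 3, Rpl30 without NV replicate 3 or control replicate 1, 3 or 4, and Trib3 without NV replicate 2, the highest adjusted p being 0.0978. For Rpl37 without control replicate 3 it was the fold change that fell short (adjusted p up to 0.0203). For Rpl30 the p threshold was met in each of these fits and the fold change fell short (adjusted p up to 0.047). Rps27, Rpl37, Rpl30 and Trib3 were not called against control replicates 2 and 3 alone (adjusted p 0.0619 to 0.115).

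Of 19 p53 targets 0 were DEGs by edgeR (median log2 fold change -0.13), 4 had an unadjusted p under 0.05, and DESeq2, limma-voom and edgeR without control replicate 1 each called 1 lower. Perp, a membrane protein of p53-dependent death, was at 17 ± 7.51 CPM in control and 5.46 ± 2.94 CPM in NV (adjusted p = 0.0605) and Zmat3 at 7.34 ± 2.48 CPM in control and 3.31 ± 1.24 CPM in NV (adjusted p = 0.174). Of 13 Bcl2 family genes 0 were DEGs by edgeR, 3 had an unadjusted p under 0.05, and DESeq2 and limma-voom each called 1 lower. EdgeR also called 1 lower, Mcl1, against control replicates 2 and 3 alone (log2 fold change -0.85, adjusted p = 0.0322) and 1 without control replicate 4. Mcl1, a survival protein that HSC require, was at 678, 1028, 771 and 586 CPM in the control libraries and 591, 443 and 459 CPM in the NV libraries. The highest NV library was just above the lowest control library, and the log2 fold change was -0.62 ± 0.17 (SE) (adjusted p = 0.0608). Bmf, a death-promoting member, was at 8.73 ± 1.54 CPM in control and 3.82 ± 2.31 CPM in NV (adjusted p = 0.156). Of 23 DNA methylation and Polycomb genes Dnmt1 and Ezh2 rose and Bmi1 fell (13.0% called, against 4.76% of all genes), with 2 higher and 0 lower when NV replicate 1, 2 or 3 or control replicate 1 or 4 was left out. Ezh2, the methyltransferase of Polycomb complex 2, was at 89.2, 114, 85.5 and 82.7 CPM in the control libraries and 156, 157 and 165 CPM in the NV libraries. The groups did not overlap (adjusted p = 0.00685), whereas Ezh1 was at 129 ± 18.7 CPM in control and 87.3 ± 8.18 CPM in NV (adjusted p = 0.0472), under the fold threshold. Dnmt3a and Tet2 had log2 fold changes of -0.02 and 0.09. Of the sex-specific genes Ddx3y was lower (73.4 to 35.4 CPM, adjusted p = 0.00998), and Eif2s3y, Kdm5d, Uty and Xist were not called. The leave-one-out fits did not call Bmi1 without NV replicate 1, 2 or 3 or control replicate 1, 2 or 4, and Ddx3y without NV replicate 2 or 3, the highest adjusted p being 0.193. Ezh2, Bmi1 and Ddx3y were not called against control replicates 2 and 3 alone (adjusted p 0.0722 to 0.268).

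Some DEGs varied widely within a group. Among NV libraries Kcnj5, a potassium channel gene, was at 2.52, 16.3 and 6.78 CPM and Kif14, a kinesin of cytokinesis, at 3.33, 20.6 and 18.2 CPM, so that NV replicate 1 of Kif14 lay within the control range of 1.30 to 4.15 CPM. Fblim1, Htr7, Myo5b and St6galnac2 were among the DEGs with the largest SD of log2 CPM in control libraries, and all but St6galnac2 had a control library at 0 counts. By chromosome the share of tested genes that were DEGs ranged from 2.70% on X to 6.90% on 15 among X and the autosomes. Among the leave-one-out fits, edgeR did not call Kcnj5 without NV replicate 2, and Kif14 without NV replicate 2 or 3 or control replicate 1, 3 or 4, the highest adjusted p being 0.161. Kcnj5 and Kif14 were not called against control replicates 2 and 3 alone (adjusted p 0.0701 to 0.177).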

How the data were processed

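RNA of sorted HSC was sequenced in 11 libraries, of which the 3 NV and 4 control libraries were compared here, grouped by the genotype in the labels. The deposited table holds raw counts per Ensembl gene (37991 IDs), which the authors made from reads of amplified cDNA of 1000 cells (Nextera XT libraries, NextSeq500) with HISAT2, the mouse build NCBIM37 and featureCounts, as named in the study's methods and the submitters' processing notes. Their versions, the strand setting and the treatment of multiply mapped reads are not given in the sources used here. Amplified cDNA without molecular identifiers counts copies and not independent molecules, so limits from a count of 0 cover counting error only. Symbols and positions came from GENCODE vM1 on the same build (37205 IDs with a symbol, 786 without), and promoters from RefSeq on GRCm38.p6.

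Genes were kept by edgeR's filterByExpr, normalised by TMM (factors 0.974 to 1.022) and tested with the quasi-likelihood F test of edgeR (4.0.16, R 4.3.3) on these 7 libraries, with Benjamini-Hochberg adjustment over all 13462 genes, and the procedure was tested on simulated data. A DEG is a gene with adjusted p below 0.05 whose fold change exceeded 1.5. The SE of a log2 fold change was its size divided by the square root of F. Errors beside levels are SD over 4 control or 3 NV libraries. Alternatives were DESeq2 (1.42.0), limma-voom (3.58.1), other filters and scalings, a fit of all 3 groups, the replicate number as a block, a test against the fold threshold, control replicates 2 and 3 alone, and each library left out. Figures were drawn with matplotlib 3.10.9.

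The comparison and the 40 gene lists were chosen with earlier results of these data known. The genes named by rule were Nras, the sort markers and 5 sex-specific genes; the 12 largest increases and decreases in log2 fold change among non-overlapping DEGs with a mean of at least 10 CPM in the higher group; the 6 largest increases and decreases in mean CPM; the 10 smallest p; up to 4 DEGs in each direction per list by p, or the 2 members with the smallest p where a list had no DEG; up to 5 DEGs each way with 0 counts in every library of a group; DEGs within 5 Mb of Nras; and the 5 DEGs with the largest SD of log2 CPM in each group. Other genes given with values were chosen after their values were seen. Some genes that the rule took are not reported here.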

Additional observations from a re-analysis of the deposited data

Results flagged for a closer look

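In 6 of 172 genes looked at, 1 of the 4 control libraries stood apart by Dixon's test for 4 samples, in which the gap between the extreme library and its nearest neighbour is divided by the range of the group. Chance puts about 1 in 20 groups past this limit. Ptprc (CD45) was highest in control replicate 4, at 370 CPM against a median of 340 CPM, a ratio of gap to range of 0.914. Espl1 was highest in control replicate 2, at 10.7 CPM, a ratio of 0.832. Hoxa5 was highest in control replicate 3, at 96.4 CPM against a median of 67.7 CPM, a ratio of 0.957. Mrc1, a macrophage receptor, was lowest in control replicate 2, at 0.19 CPM, a ratio of 0.916. Kcnj5 was counted in control replicate 3 alone among the controls, at 0.49 CPM, a ratio of 1. Myo5b was lowest in control replicate 4, at 0 CPM, a ratio of 0.935. Control replicates 2, 3 and 4 held 2 of these each and control replicate 1 held 0.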

How the results depend on the processing

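Against 641 DEGs (343 higher, 298 lower), DESeq2 called 1015 (498 higher, 517 lower) and shared 635 of them. A fit of all 3 groups called 155 (83 higher, 72 lower), control replicates 2 and 3 alone 301 (171 higher, 130 lower, 246 shared) and a test against the fold threshold 133 (87 higher, 46 lower, 65.4% higher against 53.5%). Limma-voom called 647, DESeq2 size factors in edgeR 641, the robust fit 631, no filter 686, the stricter filter 722 and no fold threshold 745. Leaving out 1 library gave 263 to 643 DEGs, 152 to 351 higher and 111 to 292 lower, with the lowest counts without NV replicate 3 (263), NV replicate 2 (269) and control replicate 1 (428). With the replicate number as a block there were 432 (253 higher, 179 lower). The pairing was checked by the correlation of the deviations of same-numbered libraries from their group means. It was 0.022, -0.053 and 0.028, so same-numbered libraries did not move together across genes. A link that acts on few genes would not show in this check. Of 144 named DEGs 0 changed direction in any alternative. All of these compared the same 7 libraries or some of them, and a reversal was hardly possible where the groups did not overlap. The calls lost were 3 with DESeq2, 16 with limma-voom, 25 with the block, 47 against control replicates 2 and 3 alone, 75 with all 3 groups and 76 with the test against the fold threshold. Among genes that were not called, the log2 fold change against control replicates 2 and 3 alone turned to 0.078 for Kit, 0.47 for Flt3, 0.10 for Eif2s3y and 0.16 for Uty. Leaving out 1 library, the log2 fold change of Cd4 ranged from -5.58 to 0.47 and the log2 fold change of Ptprc from -0.18 to 0.056. The cause of these differences was not tested. A left-out library also lowers the number of samples. With 3 and 4 libraries and totals from 5464815 counts, changes of genes with few counts were the least certain, and a p that misses the threshold does not show that a gene did not change.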
